A study of Mus musculus with 34 samples.

Results

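The 41 genes described here encode the machinery that copies the genome in S phase, together with the enzymes that supply its nucleotides and the regulators that start it. They were chosen by gene symbol, by a rule that names no expression value but was written with earlier results of these data known, and all 41 were found among the 14107 genes of a table of RNA sequencing read counts. The study established NaJa-D, NaJa-F and NaJa-G, 3 mouse colorectal cancer cell lines driven by BRAF V600E, and measured their RNA after treatment with encorafenib, a kinase inhibitor of mutant BRAF. The question of the comparison was how each line responds to the inhibitor over time.

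All groups shared the genotype VillinCreERT2::BrafV600E/+::Trp53R172H::APCdel on a C57BL/6N background, so the DMSO controls carried the same alleles as the treated cells. The alleles had been recombined by a tamoxifen-inducible Cre under the Villin promoter, which is active in intestinal epithelium. Each line was raised from the peritoneal lavage of 1 mouse that had received an orthotopic transplant of colon organoids, so a difference between lines is a difference between 3 isolates. All lines were plated together and then given either DMSO, the solvent, or 0.5 µM encorafenib. They were harvested at day 1 or day 5, and the cells kept to day 5 had fresh medium with DMSO or inhibitor on days 2 and 4. This gave 12 groups and 34 libraries, with 3 libraries in 10 groups and 2 in the day 5 groups of NaJa-F with encorafenib and NaJa-G with DMSO. The labels do not say that the replicates of a group came from separate cultures, so p-values measure the spread between these libraries, which may be technical.

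Replication starts with licensing in G1, when the origin recognition complex, Cdc6 and Cdt1 load the Mcm2 to Mcm7 helicase onto DNA. At the start of S phase Cdc45 and the GINS complex turn the loaded helicase into an active one, and primase, DNA polymerases and a sliding clamp then copy the strands. Many of the genes are targets of E2F transcription factors, which the retinoblastoma protein holds inactive until cyclin dependent kinases phosphorylate it, and in intestinal epithelium signalling through RAF, MEK and ERK feeds into this step through the D type cyclins.

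The letters that E2F factors are known to bind were looked for in the promoters of the members. The choice of genes used no sequence. Many members were already known as E2F targets, however, so a high share of matches is not an independent finding. RefSeq windows of GRCm38.p6, from 250 bases before to 50 bases after the start of a gene, were matched for 33 of the 41 members and were not found for Mcm4, Gins1, Gins2, Gins4, Ccne2, Pole, Prim2 and Rfc2. The motif set was TTTCCCGC, TTTCGCGC, TTTGCCGC and TTTGGCGC on either strand, and some of these letters can overlap each other within a promoter. A match was present in 13 of 33 member promoters (39.4%), against 4.58% of the 10225 promoters of genes in the table and 2.60% of 27025 promoters in the reference. The 5 promoters shown first belong to the members with a match that had the lowest mean change with encorafenib, and that of Rrm1, the member with the highest mean change and no match, is shown for contrast. Capitals mark the E2F type letters, all 6 windows are on the plus strand and each is written 5′ to 3′. They lie at chr4:108579204-108579503 (Orc1), chr8:122567765-122568064 (Cdt1), chr17:56304063-56304362 (Uhrf1), chr11:98907901-98908200 (Cdc6), chr8:75109259-75109558 (Mcm5) and chr7:102441445-102441744 (Rrm1).
Orc1: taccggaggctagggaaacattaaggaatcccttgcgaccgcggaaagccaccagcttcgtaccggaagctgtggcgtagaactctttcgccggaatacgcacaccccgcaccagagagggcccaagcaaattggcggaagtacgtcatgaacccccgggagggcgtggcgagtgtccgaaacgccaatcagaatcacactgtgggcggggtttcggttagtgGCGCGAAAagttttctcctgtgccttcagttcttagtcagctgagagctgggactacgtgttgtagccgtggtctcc
Cdt1: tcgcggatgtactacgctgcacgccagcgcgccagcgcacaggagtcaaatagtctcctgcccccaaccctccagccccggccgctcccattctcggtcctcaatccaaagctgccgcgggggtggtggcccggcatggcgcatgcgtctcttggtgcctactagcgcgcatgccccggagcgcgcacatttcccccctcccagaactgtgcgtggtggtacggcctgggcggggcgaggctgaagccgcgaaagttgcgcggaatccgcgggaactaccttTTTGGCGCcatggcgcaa
Uhrf1: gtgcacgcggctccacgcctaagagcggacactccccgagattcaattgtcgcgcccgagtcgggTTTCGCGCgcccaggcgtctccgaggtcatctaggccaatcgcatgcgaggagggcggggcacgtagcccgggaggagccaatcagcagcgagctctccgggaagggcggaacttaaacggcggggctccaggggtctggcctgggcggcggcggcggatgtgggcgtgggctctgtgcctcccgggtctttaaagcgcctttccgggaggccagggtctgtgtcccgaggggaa
Cdc6: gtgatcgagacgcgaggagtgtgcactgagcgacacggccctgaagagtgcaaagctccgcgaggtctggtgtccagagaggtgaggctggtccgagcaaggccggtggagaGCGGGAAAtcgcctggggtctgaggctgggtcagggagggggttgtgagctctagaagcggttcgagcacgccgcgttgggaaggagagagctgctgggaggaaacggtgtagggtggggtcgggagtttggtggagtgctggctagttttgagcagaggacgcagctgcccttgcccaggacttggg
Mcm5: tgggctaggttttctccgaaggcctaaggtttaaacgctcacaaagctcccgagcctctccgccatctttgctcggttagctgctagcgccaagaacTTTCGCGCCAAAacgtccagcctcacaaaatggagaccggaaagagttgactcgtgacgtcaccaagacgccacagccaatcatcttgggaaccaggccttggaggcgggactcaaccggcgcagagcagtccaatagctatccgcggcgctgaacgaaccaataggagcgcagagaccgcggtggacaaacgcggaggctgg
Rrm1: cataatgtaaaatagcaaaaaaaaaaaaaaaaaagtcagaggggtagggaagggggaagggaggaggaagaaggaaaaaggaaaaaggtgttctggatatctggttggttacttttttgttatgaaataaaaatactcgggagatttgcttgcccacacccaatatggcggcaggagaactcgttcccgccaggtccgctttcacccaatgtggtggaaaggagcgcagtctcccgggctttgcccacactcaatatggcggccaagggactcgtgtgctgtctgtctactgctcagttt

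The match began 27 bases before the RefSeq start used for Orc1 and 32 bases after that of Cdt1. It began 185 bases before the RefSeq start used for Uhrf1 and 138 before that used for Cdc6. Uhrf1 had 2 windows, and a window with a match is shown. In the annotation used for exon lengths, Uhrf1 begins at 56303321 and Cdc6 at 98907801, so these 2 windows lie inside the annotated genes. Orc1 begins at 108579423 there, before its RefSeq start, so its match also lies inside the annotated gene. The Mcm5 window held a pair of overlapping matches, at 153 and 149 bases before the start. A match is a description of letters and not a binding site, and the lack of one in the Rrm1 window says only that these letters are not in it.

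The libraries held between 46.01 and 80.12 M (mega) counted reads, and levels are given as CPM, counts per M reads of a library, with TMM scaling factors, which ran from 0.876 to 1.07. Pairs of replicates differed by 3.32 to 86.6 times their counting noise, so no library was a copy of another. The cell line field of 1 library, titled as replicate 3 of the NaJa-D controls at day 1, reads NaJa-G. It correlated with its own group at r of at least 0.995 and with the other lines at no more than 0.955 over all genes and was kept under its title. Without it the count of members called went from 31 to 30 for the day 1 response of NaJa-G against NaJa-D, as it did without replicate 3 of NaJa-D with encorafenib, from 31 to 29 and from 27 to 26 for NaJa-F and NaJa-G against NaJa-D in DMSO, and from 22 to 19 between the NaJa-D controls of both days, and the other counts that it changed are given beside the result. Replicate 3 of NaJa-D with encorafenib at day 1 stood apart from its group, with r down to 0.988. The intestinal epithelial label was checked with 13 markers, of which 12 were measured, with summed levels of at least 9192, 5809 and 2736 CPM in the libraries of NaJa-D, NaJa-F and NaJa-G. Cdx1, the remaining marker, was not analysed here. Leukocyte markers (3 of 9 measured) summed to 23.0 to 47.6 CPM and endothelial markers (2 of 5) to 0.752 to 1.96 CPM, and the defining genes Ptprc, Adgre1, Pecam1 and Cdh5 were not analysed here. Mesothelial markers (4 of 7 measured) came almost wholly from Msln and summed to 497 to 3528 CPM, while Wt1 was not analysed here.

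A gene was called changed where limma-voom gave an adjusted p below 0.01 over all 14107 genes. With encorafenib, the median replication gene was lower in every line on both days. At day 1 the number of the 41 that fell was 31 for NaJa-D, 22 for NaJa-F and 40 for NaJa-G, an order of lines in which sets of 3 values are given from here on. Among all genes, 21.2%, 12% and 28.7% fell in these comparisons, and 44.9%, 29.5% and 64% were called in either direction. At day 5, 33, 14 and 34 members fell, against 14.7%, 8.5% and 24.7% of all genes lower and 33%, 18.2% and 53.2% called in either direction. No member was called higher, against 23.7%, 17.5% and 35.3% of all genes at day 1 and 18.3%, 9.7% and 28.5% at day 5, in any of the 6 comparisons by limma-voom, edgeR or DESeq2, and at an unadjusted p below 0.05 the number higher was 1 in NaJa-F and 1 in NaJa-G at day 1 and 0 in the other 4.

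The median log2 fold change of the 41 genes by line was -0.35, -0.24 and -0.95 at day 1. At day 5 it was -0.44, -0.21 and -0.59. The median over all genes lay between -0.02 and 0.04 in the same 6 comparisons. Treated and control libraries did not overlap, with the treated ones lower, for 35, 33 and 40 members by line at day 1, and for 38, 33 and 36 at day 5. The same held for 26.1%, 29.1%, 33.5%, 24.7%, 27.3% and 35.4% of all genes. Counting only members that changed at least 2-fold left 15 in NaJa-G at day 1, 1 in NaJa-G at day 5 and 0 in the other 4 comparisons.

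Orc6, Cdc6, Mcm3, Mcm4, Mcm5, Mcm7, Rrm2, Ccne2, Chaf1a and Uhrf1 fell in all 6 comparisons. Another 10 members fell in 5, 40 fell in at least 1, and Rrm1 was called in none. The estimates were below 0 in all 6 comparisons for 38 members. The NaJa-D count at day 1 was 29 without the library whose cell line field differs, 36 without encorafenib replicate 3 and 19 when the spread was estimated from the compared groups alone. The NaJa-F count at day 5 was 9 without DMSO replicate 1 and 8 with replicate number as a block. In bulk RNA, fewer cells in S phase and less of each transcript per cell cannot be told apart.

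**Figure D1:**
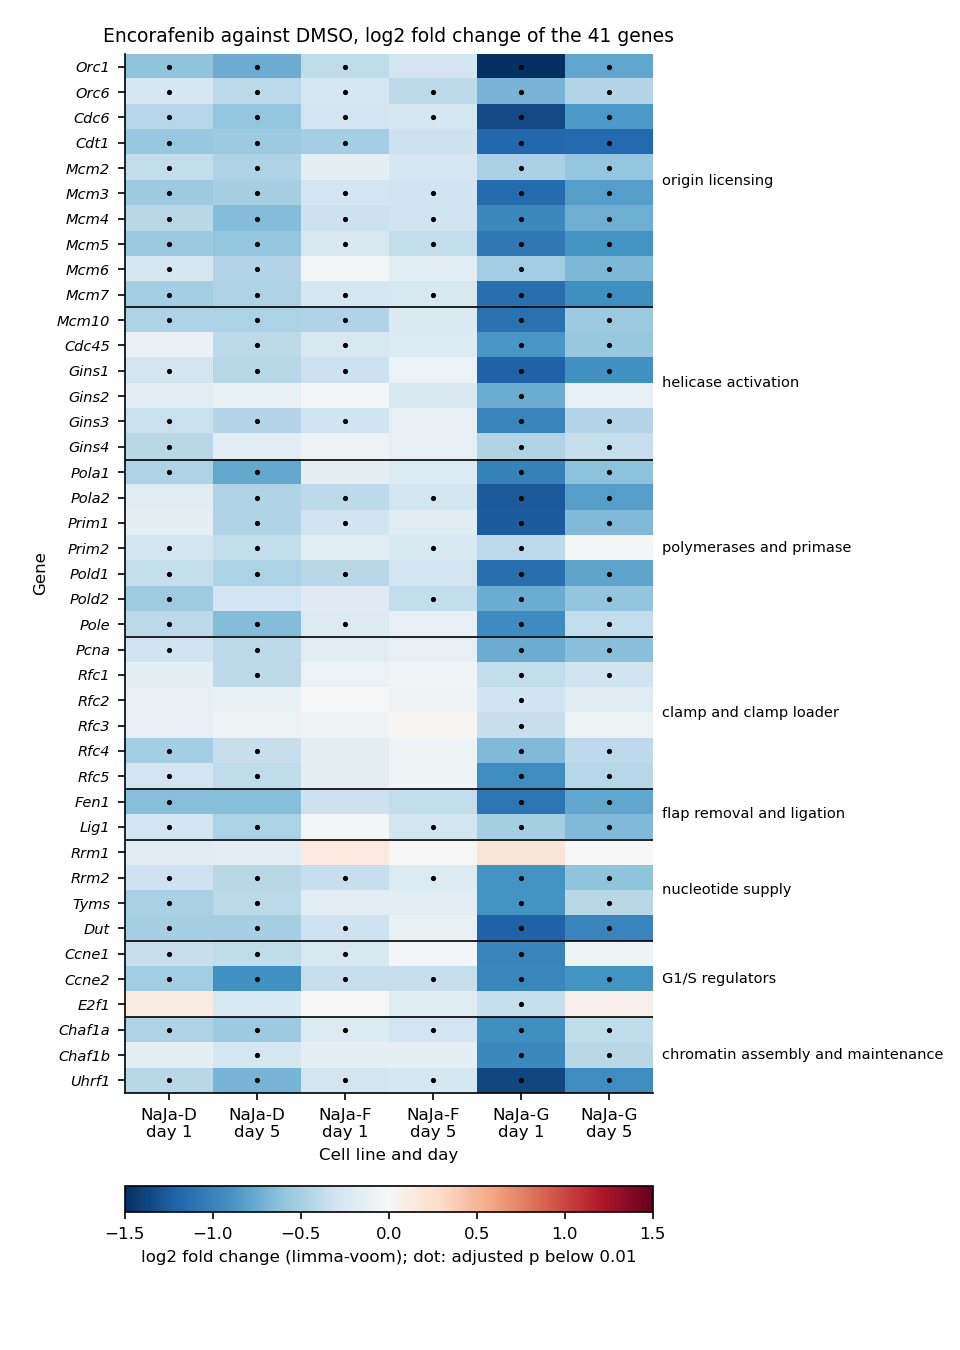
Log2 fold change of each of the 41 genes (rows, grouped by role in replication), encorafenib against DMSO, in the 3 lines at day 1 and day 5 (columns), with blue for lower, red for higher and a dot where the adjusted p was below 0.01. Blue is deepest in NaJa-G at day 1, where 40 of 41 fell, and Rrm1 carries no dot in any column.

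Averaged over the members, the level of each library shows the same order. The mean log2 CPM of the 41 genes at day 1 was 6.42, 6.36 and 6.37 in the NaJa-G libraries with DMSO and 5.50, 5.52 and 5.53 in those with encorafenib. In NaJa-D it was 6.33, 6.30 and 6.30 with DMSO and 5.91, 5.92 and 6.06 with encorafenib, the last value being replicate 3. In NaJa-F it was 6.39, 6.41 and 6.39 with DMSO and 6.16, 6.19 and 6.20 with encorafenib. All treated libraries lay below all controls of their line and day, and the gap was widest in NaJa-G. At day 5 the DMSO libraries against the encorafenib libraries were at 6.04, 6.05 and 6.14 against 5.57, 5.67 and 5.66 in NaJa-D. They were at 6.26, 6.25 and 6.24 against 6.06 and 6.05 in NaJa-F, and at 6.14 and 6.19 against 5.63, 5.61 and 5.59 in NaJa-G. Again no treated library reached a control of its line and day.

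**Figure D2:**
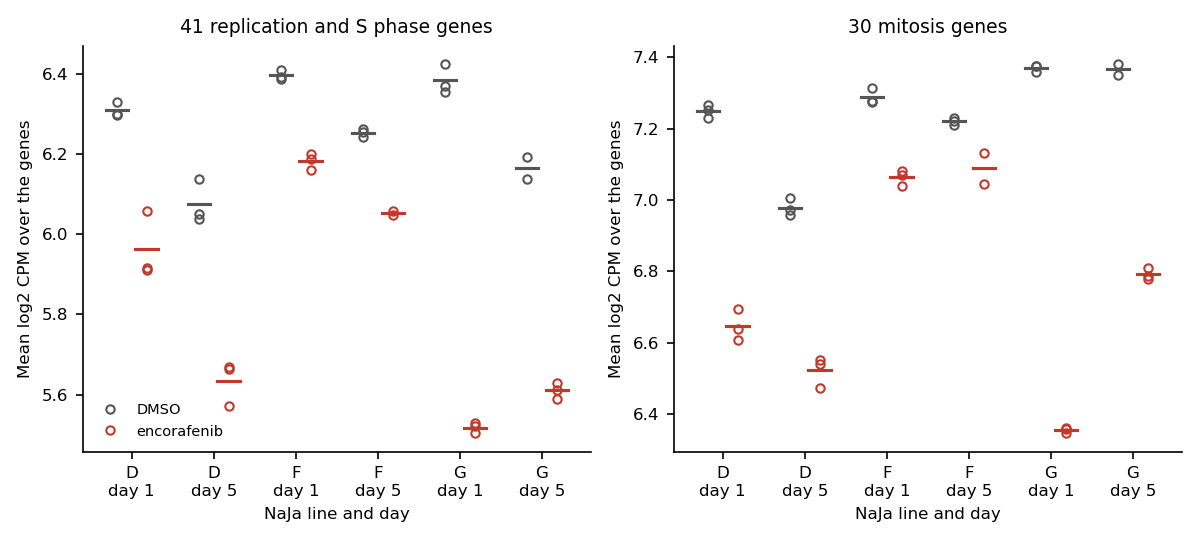
Mean log2 CPM in each library (circles, grey for DMSO and red for encorafenib) by line and day, with group means as bars, for the 41 replication genes (left) and the 30 mitosis genes (right). In the left panel encorafenib libraries lie below the DMSO libraries of the same line and day, with the lowest values in NaJa-G at day 1 and the smallest gaps in NaJa-F.

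Markers of other cell types moved with some of these groups. The study described NaJa-G cells as mesenchymal and reported that host cells were lost over several passages. Fibroblast markers (7 of 9 measured, without Thy1 and Lum) summed to 2.60 to 3.52 CPM in DMSO and 4.21 to 5.95 with encorafenib in NaJa-D. They summed to 5.05 to 6.97 CPM in DMSO and 8.39 to 9.75 with encorafenib in NaJa-F. In NaJa-G they summed to 86.2 to 112 CPM in DMSO and 172 to 187 with encorafenib at day 1, and to 24.4 to 26.9 and 248 to 271 at day 5, led by Acta2 and Col1a1. Mesothelial markers, mostly Msln, were higher with encorafenib in all lines, at 1230 to 1520 CPM in DMSO and 2222 to 3528 with encorafenib in NaJa-D. They were at 660.1 to 985 and 1003 to 1176 in NaJa-F and at 497 to 724 and 1329 to 1744 in NaJa-G. Summed levels of the intestinal epithelial markers were also higher with encorafenib on each day. For NaJa-D the sums were 9192 to 10347.5 CPM in DMSO and 11253 to 14800.5 with encorafenib. NaJa-F had 5809 to 7135 against 6933 to 9488, while NaJa-G had 2736 to 4339 against 3565 to 5667. The mean log2 CPM of these markers was higher with encorafenib in each line at day 1. At day 5 this mean was not higher in NaJa-D (7.96 in DMSO, 7.90 with encorafenib) or NaJa-G (5.54, then 5.52). NaJa-F stood at 7.05 in DMSO, then 7.12 with encorafenib. Treated and control libraries overlapped in this mean in each line at day 5. The summed leukocyte markers were mostly Cd14, at 37.3 to 47.6 CPM in DMSO and 34.9 to 42.0 with encorafenib in NaJa-D, 32.8 to 35.6 and 36.0 to 40.03 in NaJa-F and 24.0 to 27.9 and 23.0 to 26.6 in NaJa-G. Among them Csf1r, at 0.0998 to 1.02 CPM in the DMSO libraries of the 3 lines, was at 1.23 to 4.30 with encorafenib, and the mean log2 CPM of the 3 measured leukocyte markers was higher with encorafenib in each line on each day. The part of these markers in the lower level of the replication genes was not tested.

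In the values that follow, the DMSO libraries stand first and the encorafenib libraries second. The licensing genes, which load the helicase, gave the most calls. All 10 fell in NaJa-D and NaJa-G on both days, and in NaJa-F 8 fell at day 1 and 6 at day 5. Their median log2 fold changes were -0.47, -0.28 and -1.10 at day 1 and -0.52, -0.29 and -0.80 at day 5. Orc1, the largest subunit of the origin recognition complex, gave the lowest value of any member. In NaJa-G at day 1 it stood at 11.96, 14.2 and 14.99 CPM in DMSO and 4.86, 4.97 and 4.51 CPM with encorafenib, a 2.83-fold lower level (log2 fold change -1.50 ± 0.10, SE, adjusted p = 2.6e-13). In NaJa-D at day 1 it was at 17.9, 19.3 and 21.3 CPM in DMSO and 12.8, 13.9 and 11.5 CPM with encorafenib (-0.61 ± 0.09, adjusted p = 8.1e-07). The treated and control libraries did not overlap in either line.

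Cdt1, which recruits the helicase to origins, had the lowest estimate in NaJa-F at day 1 and, at day 5, in NaJa-G. It was at 96.2, 98.1 and 95.7 CPM in DMSO and 68.7, 68.1 and 66.9 CPM with encorafenib in NaJa-F at day 1 (log2 fold change -0.51 ± 0.09, adjusted p = 4.8e-05). In NaJa-G at day 5 it was at 87.5 and 102 CPM against 39.6, 43.9 and 43.3 CPM (-1.16 ± 0.10, adjusted p = 1.1e-10). Each treated library was below each control. In NaJa-F at day 5 the lowest estimates belonged to Orc6, a small subunit of the origin complex, and Mcm5, a subunit of the helicase ring. Orc6 was at 71.6, 67.8 and 73.3 CPM in DMSO and 58.0 and 50.4 CPM with encorafenib (-0.39 ± 0.06, adjusted p = 1.2e-05). Mcm5 was at 192, 192 and 191 CPM against 146 and 151 CPM (-0.37 ± 0.07, adjusted p = 0.00021). Both genes separated the 3 controls from the 2 treated libraries.

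Cdc6, the loader that works with Orc1, fell in all 6 comparisons, by 2.56-fold in NaJa-G at day 1 and 1.20-fold in NaJa-F at day 5. The helicase ring genes shared this direction, with estimates that ranged widely. In NaJa-G at day 1 the log2 fold change was -1.16 for Mcm3, -1.13 for Mcm7, -1.07 for Mcm5 and -0.97 for Mcm4, and -0.53 for Mcm6 and -0.48 for Mcm2. In NaJa-F neither Mcm2 nor Mcm6 was called on either day.

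Of the 6 genes that activate the helicase, 4, 4 and 6 fell at day 1 by line, and 4, 0 and 5 did so at day 5. Their medians at day 1 were -0.31, -0.27 and -0.94 in the same order of lines and at day 5 -0.41, -0.17 and -0.50. Mcm10, which brings polymerase alpha to the opened origin, was 1 of the 2 lowest members in NaJa-F at day 1. It stood at 64.7, 63.4 and 72.3 CPM in DMSO and 48.2, 47.3 and 51.3 CPM with encorafenib there (log2 fold change -0.45 ± 0.06, adjusted p = 9e-07). The 4 GINS subunits, which form 1 complex, gave different estimates in NaJa-G at day 1, where Gins1 was at -1.21, Gins3 at -0.996, Gins2 at -0.75 and Gins4 at -0.45 on the log2 scale. At day 5 in the same line Gins1 was at -0.91 and Gins2, which was not called, at -0.12. Reads of Gins2 are uncertain, because 67.3% of its exon bases are shared with another annotated gene. Cdc45, the third component of the active helicase, fell in NaJa-F and NaJa-G at day 1 (-0.24 and -0.87) and was at -0.10 in NaJa-D, which did not pass the test.

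Among the 7 polymerase and primase genes, 5, 4 and 7 fell by line at day 1 and 6, 3 and 6 at day 5. The medians were -0.35, -0.20 and -1.01 at day 1 and -0.45, -0.23 and -0.62 at day 5. Pola1, the catalytic subunit of the polymerase that extends the RNA primer, was the second lowest member in NaJa-D at day 5. It was at 60.7, 58.7 and 61.5 CPM in DMSO and 35.0, 37.3 and 33.9 CPM with encorafenib (log2 fold change -0.77 ± 0.08, adjusted p = 1.6e-08). Those libraries did not overlap, and Pola1 in NaJa-F at day 5 gave -0.20, which was not called. Pola2, its partner subunit, and Prim1, the catalytic primase subunit, were near their controls in NaJa-D at day 1 and far below them in NaJa-G. Pola2 was at 59.6, 58.7 and 60.2 CPM in DMSO and 54.4, 55.1 and 48.0 with encorafenib in NaJa-D at day 1, and at 80.4, 85.9 and 91.1 against 35.0, 38.2 and 34.1 in NaJa-G. Prim1 was at 43.5, 41.6 and 40.9 CPM against 39.1, 40.9 and 34.6 in NaJa-D and at 48.9, 55.8 and 58.2 against 21.5, 23.4 and 23.3 in NaJa-G. In NaJa-G the treated libraries of both genes lay below all controls. In NaJa-D neither gene was called, although the treated libraries of Pola2 lay below all its controls there too. Prim2, the second primase subunit, was lower in NaJa-G at day 1 (-0.39) and at -0.03 at day 5, which did not pass the test.

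The clamp and its loader had the medians nearest to 0 at day 1. Of 6 genes, 3, 0 and 6 fell at day 1 and 4, 0 and 4 at day 5, with medians of -0.22, -0.12 and -0.51 and -0.36, -0.06 and -0.35. Pcna, the sliding clamp that holds the polymerases on DNA, fell in NaJa-D (-0.30 and -0.40 at days 1 and 5) and in NaJa-G (-0.74 and -0.63). Rfc3, a small subunit of the loader, had the highest estimate of any member at day 5 in NaJa-D and NaJa-F. It stood at 35.8, 39.5 and 42.0 CPM in DMSO and 35.2, 37.5 and 38.6 CPM with encorafenib in NaJa-D (-0.07 ± 0.05, adjusted p = 0.29). In NaJa-F it was at 42.6, 40.3 and 40.0 CPM against 43.1 and 40.3 CPM (0.02 ± 0.06, adjusted p = 0.81), and neither was called.

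Fen1, the nuclease that trims the flaps of Okazaki fragments, and Lig1, the ligase that seals them, form the last step. Both fell in NaJa-D at day 1 and in NaJa-G on both days, and Lig1 fell in NaJa-D and NaJa-F at day 5. Fen1 had the lowest estimate in NaJa-D at day 1, at 3.02, 3.73 and 3.64 CPM in DMSO and 2.15, 1.68 and 3.04 CPM with encorafenib (log2 fold change -0.64 ± 0.19, adjusted p = 0.0053). The highest treated library overlapped the controls, the values are low, and 84.2% of the exon bases of Fen1 are shared with another annotated gene, so its reads are uncertain. The call was lost without any 1 of DMSO replicates 2 and 3 and encorafenib replicates 1 and 2.

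Of the 4 nucleotide supply genes, 3, 2 and 3 fell at day 1 and 3, 1 and 3 at day 5. Ribonucleotide reductase, which makes deoxyribonucleotides, consists of the subunits Rrm1 and Rrm2. Rrm2 fell in all 6 comparisons, at -0.31, -0.35 and -0.90 on the log2 scale by line at day 1 and -0.42, -0.21 and -0.61 at day 5. Rrm1 was the only member called in none. At day 1 it was at 506, 453 and 483 CPM in DMSO and 386, 393 and 500.0 CPM with encorafenib in NaJa-D (-0.18 ± 0.07, adjusted p = 0.022). In NaJa-F it was at 411, 412 and 376 CPM against 438, 437 and 456 CPM (0.15 ± 0.07, adjusted p = 0.071). In NaJa-G it was at 431, 393 and 387 CPM against 465, 447 and 468 CPM (0.19 ± 0.07, adjusted p = 0.013). In NaJa-F and NaJa-G the treated libraries lay above the controls, and the differences missed the threshold. The NaJa-D value was called lower without encorafenib replicate 3, and the NaJa-G value higher without DMSO replicate 1. At day 5 Rrm1 was at 359.8, 368 and 370.4 CPM against 322, 329 and 327 CPM in NaJa-D (-0.17 ± 0.07, adjusted p = 0.04). It was at 342, 349 and 349 against 367 and 332 CPM in NaJa-F (0.01 ± 0.07, adjusted p = 0.93) and at 388 and 398 against 399.5, 386 and 391 CPM in NaJa-G (-0.0026 ± 0.07, adjusted p = 0.98). No day 5 difference passed the test.

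Dut, which removes dUTP from the nucleotide pool, was the second lowest member in NaJa-G at day 5. It was at 87.9 and 96.2 CPM in DMSO and 46.1, 46.6 and 46.3 CPM with encorafenib (1.98-fold lower, log2 fold change -0.99 ± 0.08, adjusted p = 2.1e-11). In NaJa-F at day 5 it was at -0.11 and did not pass the test. Tyms, the source of thymidylate, fell in NaJa-D and NaJa-G on both days, at -0.48 and -0.40 in NaJa-D and -0.90 and -0.41 in NaJa-G.

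The 3 regulators of the G1 to S transition differed from each other. Ccne2, an E type cyclin that activates CDK2, fell in all 6 comparisons and was the lowest member in NaJa-D at day 5. It was at 25.7, 24.2 and 25.8 CPM in DMSO and 12.4, 14.3 and 13.5 CPM with encorafenib there (1.88-fold lower, log2 fold change -0.91 ± 0.06, adjusted p = 3.7e-13). Its paralogue Ccne1 fell in 4 comparisons, was at -0.99 in NaJa-G at day 1 and, not called, at -0.07 at day 5. E2f1, an activating E2F factor, fell only in NaJa-G at day 1 (-0.34) among the 6 comparisons. It had the highest estimate of any member in NaJa-D at day 1, at 59.8, 59.7 and 54.3 CPM in DMSO and 58.6, 61.6 and 73.1 CPM with encorafenib (0.15 ± 0.07, adjusted p = 0.087). In NaJa-G at day 5 it was at 72.3 and 78.3 CPM against 80.4, 80.2 and 77.7 CPM (0.08 ± 0.08, adjusted p = 0.39), also the highest. The treated and control libraries overlapped in both lines and neither value was called, although the NaJa-D value was called higher under scaling by library size alone.

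Chaf1a and Chaf1b, subunits of the chromatin assembly factor that places histones on new DNA, and Uhrf1, which guides methylation of the new strand, made up the last role. Of these, 2, 2 and 3 fell at day 1 and 3, 2 and 3 at day 5. Uhrf1 was the second lowest member in NaJa-G at day 1, at 229, 216 and 219 CPM in DMSO and 82.3, 90.2 and 84.8 CPM with encorafenib (2.58-fold lower, log2 fold change -1.37 ± 0.05, adjusted p = 4.4e-20). The 3 treated libraries lay far below the controls. Chaf1a fell in all 6 comparisons, from -0.21 in NaJa-F to -0.92 in NaJa-G at day 1, with 52.5% of its exon bases shared with another annotated gene.

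**Figure D3:**
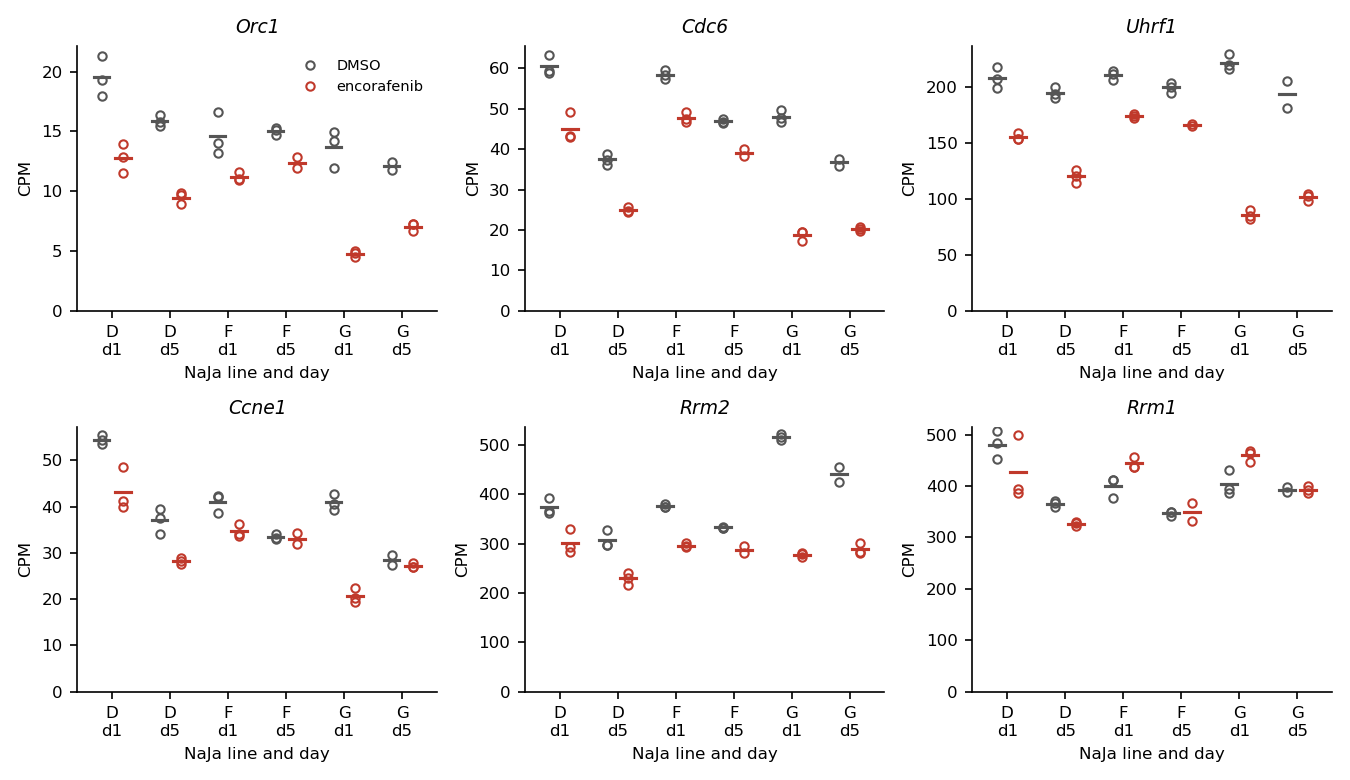
Level in CPM of Orc1, Cdc6, Uhrf1, Ccne1, Rrm2 and Rrm1 in each library by line, treatment and day, with each circle 1 library (grey for DMSO, red for encorafenib) and bars at the group means. Orc1, Cdc6 and Uhrf1 separate treated from control libraries most in NaJa-G at day 1, Ccne1 in NaJa-G no longer does so at day 5, and Rrm1 stays near its controls where Rrm2 is lower.

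Genes of the same pathways outside the 41 were counted in lists chosen with earlier results of these data known. Of 36 other replication factors, 20, 15 and 31 fell by line at day 1 and 26, 4 and 29 at day 5, with none higher. Dna2, a nuclease that processes flaps, was at -2.02 and Recql4, a helicase needed to start replication, at -2.16 in NaJa-G at day 1, while Orc4, an origin complex subunit, was called in no comparison. Of 13 genes of histone and chromatin copying, 11, 5 and 12 fell at day 1 and 10, 1 and 11 at day 5. Nasp, a histone chaperone, fell in 5 comparisons, Dnmt1, the maintenance DNA methyltransferase, in 6, and Rbbp4, a histone binding subunit of several complexes, in 1. Of 13 checkpoint and repair genes, 11, 4 and 13 fell at day 1 and 13, 1 and 12 at day 5. Brca1 and Exo1, both of homologous recombination, fell in 5 comparisons each and Atr, the replication stress kinase, in 2.

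Some genes rose in the remaining lists, in shares below or near the 23.7%, 17.5% and 35.3% of all genes that rose at day 1 and the 18.3%, 9.7% and 28.5% at day 5. Among 16 other nucleotide enzymes, 12, 10 and 11 fell and 2, 2 and 4 rose at day 1, and 11, 6 and 12 fell and 2, 1 and 3 rose at day 5. Cad, which starts pyrimidine synthesis, and Shmt1, which supplies folate carbon, fell in all 6 comparisons, at -1.68 and -2.18 in NaJa-G at day 1. Samhd1, which degrades deoxyribonucleotides, rose in all 6, from 0.21 in NaJa-F at day 5 to 1.32 in NaJa-G at day 1. Rrm2b, the alternative small subunit of ribonucleotide reductase used outside S phase, rose in 5 of 6, by 0.46, 0.34 and 0.82 at day 1. Ctps rose in NaJa-G on both days (0.34 and 0.50), and Paics, a purine synthesis enzyme, rose in NaJa-G at day 1 (0.25) and fell in 3 other comparisons.

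In the list of 20 genes of E2F, RB and CDK2, 9, 6 and 12 fell and 5, 2 and 4 rose at day 1, and 10, 5 and 13 fell and 1, 1 and 1 rose at day 5. E2f2, an activating E2F factor, fell in all 6, at -2.23 in NaJa-G at day 1 and -2.12 at day 5, and E2f8, a repressing one, fell in all 6 as well. Tfdp2, a partner of the E2F factors, was called in none. Rb1 and Rbl2, the retinoblastoma protein and its relative p130, rose in 3 comparisons each, with values of 0.74 and 0.78 in NaJa-G at day 1. Fbxw7, which targets cyclin E for degradation, rose in 4. The CDK inhibitor Cdkn1a rose in NaJa-D on both days (0.45 and 0.39) and at day 1 in NaJa-G (0.55), where it fell at day 5 (-0.82), and Cdkn1b rose in NaJa-D at day 1 (0.47). Of 30 mitosis genes, which act later in the cycle, 29, 15 and 30 fell at day 1 and 29, 10 and 30 at day 5. Their medians were -0.61, -0.22 and -1.04 at day 1 and -0.44, -0.12 and -0.56 at day 5, so in NaJa-D the median of the mitosis genes at day 1 was further below 0 than that of the replication genes.

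Whether the response differed between lines was tested directly, as the difference of the fold changes. These comparisons reuse the libraries of each line, so they are given side by side. NaJa-G responded more than both other lines at day 1. Against NaJa-F, 39 of 41 members fell more in NaJa-G and 0 fell less, with 33.5% of all genes called (14.3% lower and 19.2% higher), and the median difference was -0.69. Against NaJa-D, 30 members were lower and 1 was higher, with 36.4% of all genes called (16.2% lower and 20.2% higher), and the median difference was -0.55. For the counts of 0 between lines, edgeR and DESeq2 gave 0 as well, and at an unadjusted p below 0.05 the number was 0 for NaJa-G against NaJa-F at day 1, 2 at day 5, and for NaJa-F against NaJa-D it was 1 on the first day and 0 on the later one. In estimates, 40 members were lowest in NaJa-G and 31 followed the order NaJa-G, NaJa-D, NaJa-F.

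The largest differences between NaJa-G and NaJa-F were those of Orc1 (-1.12 ± 0.13, SE, adjusted p = 9.3e-08) and Uhrf1 (-1.09 ± 0.07, adjusted p = 3.6e-13). In NaJa-F, Orc1 was at 13.2, 14.1 and 16.6 CPM in DMSO and 11.1, 10.9 and 11.6 with encorafenib, and Uhrf1 at 214, 211 and 206 against 172, 174 and 175. In NaJa-F both genes fell by 1.31-fold and 1.21-fold, against 2.83-fold and 2.58-fold in NaJa-G. Between NaJa-G and NaJa-D the largest were Prim1 (-1.11 ± 0.11, adjusted p = 1.7e-09) and Pola2 (-1.08 ± 0.09, adjusted p = 2.2e-10). Rrm1 was the 1 member with a higher response in NaJa-G than in NaJa-D (0.37 ± 0.09, adjusted p = 0.0019), a call that was lost when the spread came from the compared groups alone.

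Fewer members differed between NaJa-F and NaJa-D at day 1, in a share near or below that of all genes. The response of NaJa-F was the weaker for 2 members and the stronger for 0, with 8.79% of all genes called (4.49% higher and 4.3% lower) and a median difference of 0.14. They were Lig1, at 147, 142 and 139.9 CPM in DMSO and 112, 114 and 126 with encorafenib in NaJa-D and at 109, 109 and 106 against 108, 106 and 105 in NaJa-F (0.27 ± 0.06, adjusted p = 0.0032), and Chaf1a. Chaf1a was at 107, 104 and 101 against 70.8, 73.3 and 82.5 CPM in NaJa-D and at 108, 109 and 103 against 90.4, 94.6 and 92.4 in NaJa-F (0.26 ± 0.07, adjusted p = 0.0082). The count rested on single libraries. It was 15 without NaJa-D encorafenib replicate 3, 0 without replicate 1 or 2 of the same group or NaJa-F DMSO replicate 3, and 1 without NaJa-D DMSO replicate 1 or 2, NaJa-F DMSO replicate 1 or any 1 of the NaJa-F encorafenib libraries.

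At day 5 the median differences of NaJa-G from the other lines were nearer to 0 than at day 1, and that of NaJa-F from NaJa-D was further from 0. NaJa-G was lower than NaJa-F for 21 members and higher for 0 (24.2% of all genes called, 7.95% lower and 16.2% higher), with a median of -0.36. Dut (-0.88 ± 0.11, adjusted p = 5.5e-07) and Cdt1 (-0.84 ± 0.15, adjusted p = 4.2e-05) differed most. In NaJa-F at day 5 Dut was at 99.0, 95.6 and 97.9 CPM in DMSO and 82.1 and 99.5 with encorafenib, and Cdt1 at 84.8, 85.4 and 80.2 against 56.2 and 79.1. The treated NaJa-F libraries overlapped the controls for Dut and lay below them for Cdt1, and neither gene was called there. NaJa-F responded less than NaJa-D for 9 members and more for 0 (8.85% of all genes called, 4.08% higher and 4.77% lower), with a median of 0.23. The count was 5 without NaJa-F encorafenib replicate 1. Pola1 (0.57 ± 0.12, adjusted p = 0.0017) and Ccne2 (0.56 ± 0.08, adjusted p = 1.7e-05) differed most. In NaJa-F at day 5 Pola1 was at 82.9, 85.2 and 83.4 CPM against 82.4 and 64.5 CPM, and Ccne2 at 28.9, 28.9 and 28.0 against 23.6 and 21.4 CPM, in DMSO and encorafenib. The Pola1 call was lost without NaJa-F encorafenib replicate 1.

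Between NaJa-G and NaJa-D at day 5, 6 members were lower and 2 higher in NaJa-G, with 21.9% of all genes called (7.82% lower and 14.1% higher) and a median of -0.12, so the share called was close to that of all genes. Cdt1 (-0.62 ± 0.14, adjusted p = 0.00094) and Dut (-0.49 ± 0.11, adjusted p = 0.001) were the largest. In NaJa-D at day 5 Cdt1 was at 95.1, 86.7 and 92.3 CPM in DMSO and 56.3, 68.1 and 64.1 with encorafenib, and Dut at 77.8, 66.2 and 76.5 against 49.2, 57.9 and 48.4. Both fell in NaJa-D as well, by less. The 2 that responded less in NaJa-G were Prim2 and Pole, the catalytic subunit of the leading strand polymerase. Prim2 was at 30.6 and 28.0 CPM in DMSO and 29.2, 28.0 and 28.4 with encorafenib in NaJa-G and at 24.5, 24.5 and 27.5 against 18.8, 20.1 and 20.5 in NaJa-D (0.33 ± 0.09, adjusted p = 0.0058). Pole was at 186 and 163 against 136, 136 and 133 CPM in NaJa-G and at 272, 251 and 249.7 against 160.0, 173 and 159.9 in NaJa-D (0.28 ± 0.07, adjusted p = 0.0036). The count of 8 was 2 without NaJa-G DMSO replicate 3 and 5 without NaJa-D encorafenib replicate 2 or 3. The calls of Cdt1, Dut, Prim2 and Pole were all lost without that NaJa-G library, that of Prim2 also without any 1 of NaJa-D DMSO replicate 3, NaJa-D encorafenib replicates 1 and 2 and NaJa-G encorafenib replicates 1 and 3, and that of Pole without any 1 of NaJa-D DMSO replicate 1, NaJa-D encorafenib replicates 1 and 3 and NaJa-G encorafenib replicate 2.

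The response of NaJa-G was weaker at day 5 than at day 1 for many members. The fold change at day 5 was less negative than at day 1 for 21 members and more negative for 0, with 31.7% of all genes called (15.5% higher and 16.2% lower) and a median difference of 0.31. Ccne1 changed most. It was at 42.8, 39.3 and 40.6 CPM in DMSO and 20.2, 19.4 and 22.4 CPM with encorafenib at day 1 and at 27.4 and 29.6 against 27.8, 26.8 and 27.0 CPM at day 5 (0.92 ± 0.10, adjusted p = 1.7e-08). Orc1 was at 12.5 and 11.8 CPM in DMSO and 6.63, 7.27 and 7.22 with encorafenib at day 5, up from the day 1 values given above under encorafenib (0.72 ± 0.15, adjusted p = 0.00023). By edgeR and DESeq2 the number more negative was 0 too, and at an unadjusted p below 0.05 it was 1.

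In NaJa-D, 2 members fell further at day 5 than at day 1 and 0 less, with 7.29% of all genes called (4.54% lower and 2.76% higher) and a median of -0.10. The share of members called was thus near or below that of all genes. By edgeR the counts were 2 and 0 and by DESeq2 3 and 0, and at an unadjusted p below 0.05 they were 12 and 2. Ccne2 was at 33.4, 30.7 and 33.1 CPM in DMSO and 22.1, 22.3 and 23.3 CPM with encorafenib at day 1, against the larger gap at day 5 given above (-0.39 ± 0.08, adjusted p = 0.0013). Uhrf1 was at 207, 218 and 199 against 153, 153 and 159 CPM at day 1 and at 190.3, 194 and 199 against 114, 120.3 and 126 at day 5 (-0.27 ± 0.07, adjusted p = 0.0054). The count was 1 without DMSO day 1 replicate 3, the library whose cell line field differs, without DMSO day 5 replicate 3 or without encorafenib day 5 replicate 1, and it was 0 when the spread came from the compared groups alone. Without encorafenib day 1 replicate 3, the library that stood apart, 1 member fell further at day 5 and 2 fell less, with a median of -0.037. The Uhrf1 call was lost without any 1 of DMSO day 1 replicates 1 and 3, DMSO day 5 replicate 3, the day 1 encorafenib libraries and day 5 encorafenib replicates 1 and 2, and that of Ccne2 without none.

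In NaJa-F, 1 member fell further at day 5, a smaller share than among all genes. Of all genes 5.88% were called (4.95% lower and 0.929% higher), and the median of the members was 0.02. The member was Lig1, at 115, 115 and 115 CPM in DMSO and 96.3 and 93.7 with encorafenib at day 5 (-0.25 ± 0.06, adjusted p = 0.0096). The call was lost without any 1 of the 11 libraries and by edgeR and DESeq2.

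The same members also changed with time in the controls. In DMSO, 22, 7 and 17 fell from day 1 to day 5 by line and 0 rose, with 29%, 16.7% and 34.1% of all genes called, 15.3%, 7.01% and 16.8% lower and 13.7%, 9.73% and 17.2% higher, and medians of -0.25, -0.16 and -0.20. At an unadjusted p below 0.05, 1 member rose in each line, and by edgeR and DESeq2 0 did. With the spread taken from the groups compared, 12 fell and 1 rose in NaJa-F and 3 fell in NaJa-G. For NaJa-F the count was 3 without replicate 1 or 2 of DMSO at day 1, and the NaJa-G count 10 without DMSO day 5 replicate 1. Under scaling by library size alone the NaJa-D count was 8 lower and 1 higher, the NaJa-F count 3 and 1 and the NaJa-G count 11 and 1.

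Cdc6 fell most in NaJa-D, from 59.3, 58.8 and 63.4 CPM at day 1 to 37.3, 36.2 and 38.9 at day 5 (-0.69 ± 0.05, adjusted p = 3.5e-11). Ccne1 in NaJa-D went from 53.6, 55.5 and 54.4 to 34.0, 37.6 and 39.4 CPM (-0.56 ± 0.06, adjusted p = 9.5e-08). No day 5 library of either gene reached the day 1 range. In NaJa-F, Cdc6 went from 57.3, 58.3 and 59.5 to 47.4, 46.6 and 46.6 CPM (-0.32 ± 0.05, adjusted p = 1.9e-05), and Fen1 from 4.07, 4.23 and 3.61 to 3.14, 2.85 and 2.93 CPM (-0.41 ± 0.16, adjusted p = 0.052), which was not called. In NaJa-G, E2f1 went from 123, 102 and 105 to 72.3 and 78.3 CPM (-0.55 ± 0.08, adjusted p = 2e-06). Ccne1 gave -0.52 ± 0.07 in the same line (adjusted p = 1.4e-06), with the day 1 and day 5 controls apart as shown above.

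The days were also compared under encorafenib, in each line on its own and as a choice made after the data were seen, and differences between lines in this change were not tested. From day 1 to day 5, 27 members fell and 0 rose in NaJa-D, 13 fell and 0 rose in NaJa-F, and 12 rose and 3 fell in NaJa-G, with 26.7%, 22.5% and 41% of all genes called, 14.2%, 12.3% and 20.4% lower and 12.5%, 10.2% and 20.6% higher. The medians were -0.36, -0.07 and 0.07. At an unadjusted p below 0.05, NaJa-D had 1 that rose and NaJa-F 2, and by edgeR and DESeq2 neither had any. Without encorafenib day 1 replicate 3, the library that stood apart, 25 fell and 1 rose in NaJa-D. The NaJa-F count was 8 without encorafenib day 1 replicate 2. The NaJa-G count of 15, a smaller share (36.6%) than among all genes, was 9 without encorafenib replicate 3 of either day. Under scaling by library size alone the split became 2 higher and 7 lower for NaJa-F, with 17 and 1 for NaJa-G, while the NaJa-F median turned to 0.04.

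In NaJa-G, Pole rose from 92.1, 88.9 and 85.4 CPM at day 1 to 136, 136 and 133 at day 5 (1.52-fold, log2 fold change 0.61 ± 0.05, adjusted p = 2.9e-11). Orc1 rose from the day 1 values given above to 6.63, 7.27 and 7.22 CPM (0.55 ± 0.11, adjusted p = 0.0002). The 3 that fell there were Mcm2, Rfc2 and Rrm1. Mcm2 was at 224, 222 and 226 CPM at day 1 and 188, 189 and 183 at day 5 (-0.26 ± 0.07, adjusted p = 0.0018). Rfc2 was at 44.5, 42.4 and 45.9 CPM at day 1 and 40.7, 39.0 and 38.2 at day 5 (-0.17 ± 0.05, adjusted p = 0.0097), and Rrm1 gave -0.23 ± 0.07 (adjusted p = 0.005). The calls of Rfc2 and Rrm1 were lost under scaling by library size alone and without any 1 of encorafenib replicates 1 and 3 of day 1 and 2 and 3 of day 5.

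In NaJa-D the largest falls under encorafenib were those of Cdc6, from 43.1, 43.2 and 49.1 CPM at day 1 to 24.6, 25.6 and 24.5 at day 5 (-0.85 ± 0.05, adjusted p = 9.4e-13), and Ccne2 (-0.75 ± 0.06, adjusted p = 1e-10). In NaJa-F they were E2f1, from 83.9, 86.7 and 88.1 to 59.0 and 65.1 CPM (-0.48 ± 0.08, adjusted p = 4.6e-05), and Gins2, from 27.4, 29.8 and 28.8 to 19.2 and 21.8 CPM (-0.48 ± 0.09, adjusted p = 0.00011). The day 1 and day 5 libraries of these genes did not overlap. The 30 mitosis genes gave 2, 3 and 27 higher and 12, 2 and 0 lower by line, with medians of -0.13, 0.01 and 0.44. In NaJa-G the median of the mitosis genes was thus 0.44 and that of the replication genes 0.07. Fibroblast markers in the treated NaJa-G libraries were at 172 to 187 CPM at day 1 and 248 to 271 at day 5, and their part was not tested.

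**Figure D4:**
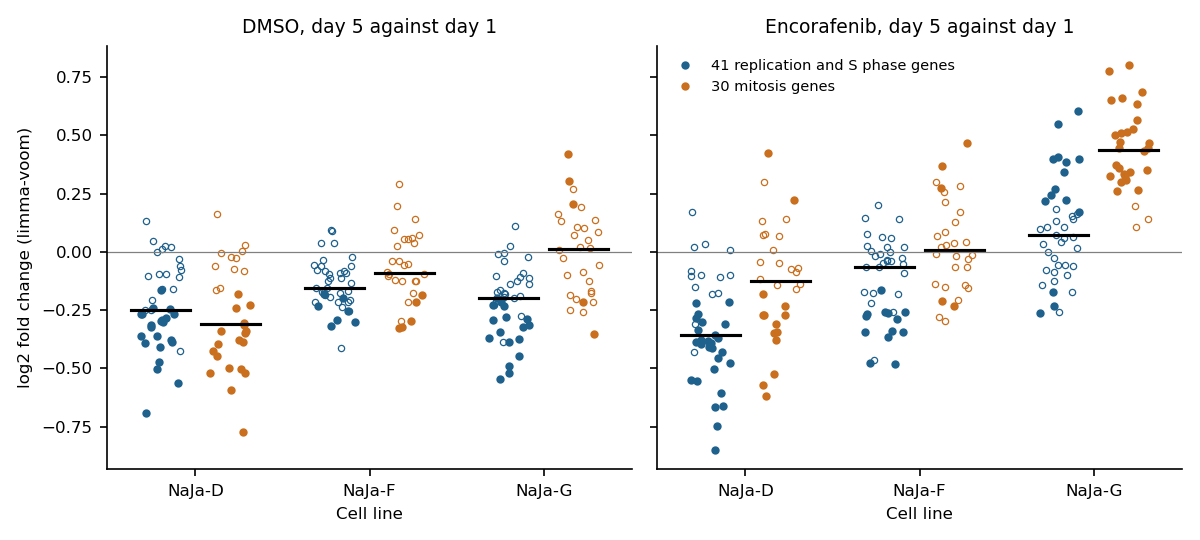
Log2 fold change from day 1 to day 5 in each line, in DMSO (left) and in encorafenib (right), for the 41 replication genes (blue) and the 30 mitosis genes (orange), with filled points for genes called, open points for the rest and a line at the median. The called replication genes all lie below 0 in DMSO, and under encorafenib those of NaJa-D do too while NaJa-G has 12 above 0.

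The lines also differed without the inhibitor, as the mean of both days in DMSO. Against NaJa-D, 22 members were higher and 9 lower in NaJa-F and 19 higher and 8 lower in NaJa-G, and between NaJa-G and NaJa-F 8 were higher and 12 lower. Among all genes 61.6%, 67.4% and 54.4% were called, 32.6%, 33.3% and 25.2% higher and 29%, 34.1% and 29.2% lower, so the share of members called, 75.6%, 65.9% and 48.8%, was not far from the background. The medians were 0.18, 0.13 and -0.03. Under scaling by library size alone the first and second splits were each 29 higher and 6 lower.

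Rfc2, a subunit of the clamp loader, differed most in all 3 pairs. It ran from 110.0 to 139.9 CPM (median 129) in the 6 NaJa-D controls and from 64.0 to 77.9 CPM (median 72.6) in the 6 NaJa-F controls, and stood at 54.6, 52.9 and 55.1 CPM (day 1) and 42.4 and 46.4 (day 5) in NaJa-G. The 3 lines did not overlap, and NaJa-G was 2.58-fold lower than NaJa-D (log2 fold change -1.37 ± 0.04, adjusted p = 1.4e-22) with NaJa-F between them (-0.82 ± 0.04 against NaJa-D, adjusted p = 1.1e-17). Mcm7 was likewise highest in NaJa-D, at 428 to 565 CPM (median 507), with NaJa-F at 326 to 376 CPM (median 337) and NaJa-G at 364, 311 and 312 CPM at day 1 and 272 and 308 at day 5. Against NaJa-D it was at -0.54 in NaJa-F and -0.70 in NaJa-G. Mcm7 was the 1 helicase ring gene lower in both lines, while Mcm3 and Mcm4 were higher in both.

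Pole, Rfc5 and Orc1 formed the same order. Pole ran from 249.7 to 354 CPM (median 304) in NaJa-D and from 233 to 253 CPM (median 244) in NaJa-F and stood at 164, 177 and 172 CPM (day 1) and 186 and 163 (day 5) in NaJa-G (-0.28 and -0.78 against NaJa-D). Rfc5, another loader subunit, ran from 132 to 153 CPM (median 141) and from 109 to 119 CPM (median 112) and stood at 91.6, 93.1 and 98.9 CPM at day 1 and 85.2 and 90.3 at day 5 (-0.33 and -0.64). Orc1 ran from 15.4 to 21.3 CPM (median 17.2) and from 13.2 to 16.6 CPM (median 14.9), with the NaJa-G values given above (-0.24 and -0.45). NaJa-D and NaJa-G did not overlap in any of the 3, whereas NaJa-D and NaJa-F overlapped in Pole and Orc1.

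Further members were lower outside NaJa-D. Ccne1 ran from 34.0 to 55.5 CPM (median 46.5) in NaJa-D and from 33.0 to 42.4 CPM (median 36.3) in NaJa-F, at -0.28 and -0.39 in NaJa-F and NaJa-G against NaJa-D. Pold1, the catalytic subunit of the lagging strand polymerase, ran from 82.9 to 98.2 CPM (median 89.2) and from 68.3 to 79.2 CPM (median 73.0) and stood at 80.03, 80.9 and 80.8 CPM (day 1) and 63.7 and 77.3 (day 5) in NaJa-G (-0.29 and -0.25). The NaJa-G call of Pold1 was lost without DMSO day 5 replicate 1, and both Pold1 calls under scaling by library size alone. Lig1 was lower in NaJa-F alone, at 106 to 115 CPM (median 112) against 127 to 147 CPM (median 134) in NaJa-D and 136, 128 and 130.4 CPM (day 1) and 136 and 148 (day 5) in NaJa-G (-0.28 ± 0.03, adjusted p = 3.9e-09). Rrm1 was lower in NaJa-F as well, at 342 to 412 CPM (median 363) against 359.8 to 506 CPM (median 411) (-0.17 ± 0.05, adjusted p = 0.0018), with overlapping libraries. Cdc6 was lower in NaJa-G, at 49.8, 46.6 and 47.7 CPM at day 1 and 35.9 and 37.6 at day 5 against 36.2 to 63.4 CPM (median 48.9) in NaJa-D (-0.18 ± 0.04, adjusted p = 0.0001). Those libraries overlapped too.

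The largest positive differences from NaJa-D were those of Gins1 in NaJa-F and E2f1 in NaJa-G. Gins1 ran from 11.5 to 13.9 CPM (median 12.8) in NaJa-D and from 20.2 to 22.2 CPM (median 21.3) in NaJa-F (1.65-fold higher, 0.73 ± 0.04, adjusted p = 1.3e-14). E2f1 ran from 44.5 to 59.8 CPM (median 52.9) in NaJa-D and from 69.5 to 89.7 CPM (median 75.8) in NaJa-F, and the NaJa-G values given above were 1.74-fold higher than those of NaJa-D (0.80 ± 0.05, adjusted p = 9e-14). Both genes separated NaJa-F and NaJa-G from NaJa-D without overlap, and for E2f1 those lines overlapped each other. Rfc1, the large loader subunit, was at 133, 133 and 132 CPM (day 1) and 142 and 123 (day 5) in NaJa-G against 186 to 202 CPM (median 193) in NaJa-F (-0.55 ± 0.04, adjusted p = 9.6e-13).

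Of the 8 members higher in NaJa-G than in NaJa-F, Rrm2 differed most, at 522, 517 and 511 CPM at day 1 and 456 and 424 at day 5 against 332 to 381 CPM (median 354) (0.43 ± 0.04, adjusted p = 1.9e-10). Ccne2 was at 39.0, 39.1 and 40.5 CPM at day 1 and 36.2 and 35.5 at day 5 against 28.0 to 32.7 CPM (median 30.3) (0.31 ± 0.04, adjusted p = 2.2e-08). Lig1 (0.29) and E2f1 (0.22) followed, with the values given above. Cdt1, Gins4, Orc6 and Mcm2 differed by small amounts. In NaJa-G Cdt1 was at 126, 109 and 109 CPM at day 1 and 87.5 and 102 at day 5 against 80.2 to 98.1 CPM (median 90.5), and Gins4 at 51.2, 43.5 and 45.7 CPM at day 1 and 39.8 and 42.7 at day 5 against 36.3 to 42.0 CPM (median 38.6). Orc6 was at 87.3, 91.0 and 92.5 CPM at day 1 and 76.1 and 71.5 at day 5 against 67.8 to 77.0 CPM (median 72.4), and Mcm2 at 345, 298 and 299 CPM at day 1 and 265 and 295 at day 5 against 237 to 299 CPM (median 260.3). Their log2 fold changes were 0.21, 0.18, 0.17 and 0.16, all 4 with overlapping libraries, and the calls of Cdt1 and Mcm2 were lost without any 1 of several libraries, among them NaJa-F DMSO day 1 replicates 1 and 3, and that of Gins4 without NaJa-G DMSO day 1 replicate 1 or day 5 replicate 3.

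Per kilobase of exon, so that genes can be compared, the most abundant members in the day 1 controls were Rrm2, Pcna and Mcm7, at 152, 106 and 93.0 CPM per kb as the mean of the 3 lines. The lowest were Fen1, Gins3 and Orc1, at 1.504, 4.19 and 4.59. The place of Fen1 is uncertain, since 84.2% of its exon bases are shared with another annotated gene and reads there may not have been counted. The same limit holds for Gins2, with 67.3% shared. Of the 41, 20 overlap another annotated gene and 12 overlap one that is itself in the table. In the table, 9 genes start within 1000 bases of a member on the opposite strand. Among them Vps35, Ap4m1, Ufd1 and Tmem258 also overlap that member. The median log2 fold changes of the 9 genes were between -0.27 and 0.05 over the 6 encorafenib comparisons. At day 1, 1, 0 and 3 of them fell and 1, 2 and 2 rose by line, and at day 5, 0, 1 and 2 fell and 0 rose.

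The members with E2F type letters in their promoter window were compared with those without, as a description. In NaJa-G at day 1 the median log2 fold change was -1.13 for the 13 with a match, -0.90 for the 20 without and -0.85 for the 8 with no window, and at day 5 it was -0.80, -0.49 and -0.36. In NaJa-D the first and second of these groups were at -0.43 and -0.30 at day 1 and -0.50 and -0.40 at day 5. The ranges overlapped in every comparison, and in NaJa-G at day 1 ran from -1.50 to -0.35 with a match and from -1.26 to 0.19 without. Among the 26 mitosis genes with a window, 1 held the E2F type letters (3.85%). The CHR type letters TTTGAA and TTCGAA, known from promoters of genes of late cell cycle, were in 20 of these 26 (76.9%). They were in 7 of 33 replication genes (21.2%) and 16.2% of the genes in the table with a window. The CCAAT box, CCAAT on either strand, was in 20 of 33 (60.6%), 19 of 26 (73.1%) and 43.0%.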

How the data were processed

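RNA was sequenced from 34 libraries of NaJa-D, NaJa-F and NaJa-G cells in 12 groups. The authors deposited raw read counts per gene, and the submitters' processing notes name Trimmomatic 0.39 and STAR 2.5.2b, with alignment to mouse GRCm38. Which counter and annotation release were used, and whether strand was, is not given in the sources used here, so reads of overlapping genes may be split or shared. The deposited table of counts holds 14107 genes, and the lowest summed count of a gene over all libraries was 360. Symbols were matched to 14064 of the 14107 identifiers.

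Counts were scaled with TMM factors (edgeR 4.0.16) and fitted with limma-voom (limma 3.58.1, R 4.3.3) in 1 model of 12 group means over all 34 libraries. TMM, limma and the threshold of adjusted p below 0.01 (Benjamini-Hochberg, over all 14107 genes) follow the methods of the study, and the voom weights were chosen here. Errors of log2 fold changes are standard errors. A difference in response is a contrast of fold changes in the same model. CPM values use the TMM factors, and mean log2 CPM values a prior count of 2. Alternatives were the edgeR quasi-likelihood test, DESeq2 (1.42.0), limma-trend, other scalings, filters and thresholds, a replicate block and the omission of each library in turn. The procedure was tested on simulated data.

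The members and the gene lists were chosen with earlier results of these data known. Values in each library are given for the 2 lowest and the 1 highest member of each encorafenib comparison, the 2 largest called response differences, the 2 largest changes of each DMSO comparison, members called against the majority and members called in no encorafenib comparison. Of each other list, the 2 genes with the largest and the 1 with the smallest absolute mean change are named, with genes called higher. The comparison of days under encorafenib, and genes named beyond this rule, were added after the data were examined. Promoters are RefSeq sequences of GRCm38.p6.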

Additional observations from a re-analysis of the deposited data

Results flagged for a closer look

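The change with encorafenib differed between lines or days for the members below, by the interaction contrast of limma-voom at an adjusted p below 0.01. At day 1 NaJa-F minus NaJa-D gave 0.27 for Lig1 and 0.26 for Chaf1a on the log2 scale. NaJa-G minus NaJa-D gave -1.08 for Pola2, -1.11 for Prim1 and 0.37 for Rrm1, and NaJa-G minus NaJa-F gave -1.12 for Orc1 and -1.09 for Uhrf1. Positive values mean a weaker fall, or a higher level, in the line named first.

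At day 5 NaJa-F minus NaJa-D gave 0.57 for Pola1 and 0.56 for Ccne2. NaJa-G minus NaJa-D gave -0.62 for Cdt1, -0.49 for Dut, 0.33 for Prim2 and 0.28 for Pole, and NaJa-G minus NaJa-F gave -0.84 for Cdt1 and -0.88 for Dut. Between the days, the response at day 5 minus that at day 1 was -0.39 for Ccne2 and -0.27 for Uhrf1 in NaJa-D, -0.25 for Lig1 in NaJa-F, and 0.72 for Orc1 and 0.92 for Ccne1 in NaJa-G.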

How the results depend on the processing

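The median of the members with encorafenib stayed below 0 in each of the 6 comparisons under all alternatives for which it was computed. It was not computed for limma-trend or for the spread taken from the groups compared. Single members were called higher under some alternatives, among them E2f1 in NaJa-D at day 1 under scaling by library size alone. Rrm1 in NaJa-G at day 1 was another, without DMSO replicate 1. The counts of calls moved more. A change of at least 2-fold left 15 members in NaJa-G at day 1, 1 in NaJa-G at day 5, 2 and 3 for NaJa-G against NaJa-D and NaJa-F in the day 1 response, 1 for NaJa-G against NaJa-D in DMSO, and 0 in the other 19 comparisons. With the spread taken from the groups compared, 19 members were called in NaJa-D at day 1, 0 for the day 1 response of NaJa-F against NaJa-D, 3 for NaJa-G against NaJa-D at day 5 and 0 for the days in NaJa-D, and between the days 13 and 3 in DMSO in NaJa-F and NaJa-G and 13 in treated NaJa-D.

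RLE scaling gave 9 members in NaJa-F at day 5, 1 for the day 1 response of NaJa-F against NaJa-D, and 1 and 0 for the response between days in NaJa-D and NaJa-F. That last count was 0 as well by edgeR, DESeq2 and limma-trend, and DESeq2 gave 4 for the day 1 response of NaJa-F against NaJa-D. At an adjusted p below 0.05 the counts were 11 and 15 for NaJa-F against NaJa-D at days 1 and 5, 16 for NaJa-G against NaJa-D at day 5, 10 for the response between days in NaJa-D and 16 between the DMSO days in NaJa-F.

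Scaling by library size alone moved the median of all genes by -0.13 to 0.18 and that of the members with it. It gave 0 members for the day 1 response of NaJa-F against NaJa-D, 7 and 0 for the response between days in NaJa-D and in NaJa-F, with 9 and 4 between the DMSO days in these lines. The members' median became -0.27 in NaJa-D at day 1 and -1.001 and -0.63 in NaJa-G at days 1 and 5. For the response at day 1 it became 0.040 with NaJa-F and -0.68 with NaJa-G set against NaJa-D, and at day 5 -0.17 and -0.42 for NaJa-G against NaJa-D and NaJa-F, and -0.17 between days in NaJa-D. In DMSO it was 0.30 and 0.25 for NaJa-F and NaJa-G against NaJa-D and -0.074, -0.078 and -0.13 between the days by line. In treated cells it was -0.25, 0.038 and 0.15 between the days, so the sign turned in NaJa-F. On day 1 or day 5 alone the DMSO median of NaJa-F against NaJa-D was 0.086 and 0.22.

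Leaving out single libraries gave counts of 9 to 12 in NaJa-F at day 5, 0 to 15 and 5 to 11 for NaJa-F against NaJa-D at days 1 and 5, 2 to 12 for NaJa-G against NaJa-D at day 5, 1 to 3 and 0 for the response between days in NaJa-D and NaJa-F, 3 to 6 and 10 to 16 between the DMSO days in NaJa-F and NaJa-G, and 8 to 11 and 9 to 14 between the treated days in the same lines. The medians ranged from -0.44 to -0.32 in NaJa-D at day 1, from -0.47 to -0.39 in NaJa-D at day 5 and from -0.62 to -0.53 in NaJa-G at day 5. For the response they ranged from 0.11 to 0.22 and 0.19 to 0.26 for NaJa-F against NaJa-D at days 1 and 5, from -0.60 to -0.45 for NaJa-G against NaJa-D at day 1 and from -0.13 to -0.037 between days in NaJa-D. In DMSO the range was 0.11 to 0.17 for NaJa-G against NaJa-D and -0.25 to -0.16 between the days in NaJa-G, and in treated cells -0.38 to -0.29 in NaJa-D and -0.15 to -0.066 in NaJa-F between the days. The cause of the changes was not tested.

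The replicate numbers are shared between groups, but nothing says that they mark a shared culture or day. Deviations of same-numbered libraries correlated at -0.436 to 0.487 over the encorafenib comparisons, and in no comparison with 3 or more pairs were all above 0.1. Between the DMSO libraries of NaJa-G and NaJa-F the range was -0.667 to 0.793. At day 1, NaJa-G DMSO replicate 1 correlated at 0.784 and -0.819 with NaJa-F DMSO replicates 2 and 3. A block by replicate number does not take up such links between differently numbered libraries. With replicate number as a block, 8 members were called in NaJa-F at day 5, 1 and 3 for NaJa-F against NaJa-D at days 1 and 5, 4 for NaJa-G against NaJa-D at day 5, and 0 for the response between days in NaJa-D and in NaJa-F. For the other comparisons the count stayed within 1.5 times.

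For 224 values of single genes there were 3846 alternatives. Of these, 3482 kept their side of the threshold, 327 lost the call and 37 gained it. A turn in sign was counted only for values called by the limma-voom fit or by the alternative. Their number was 0, and turns in values called by neither were not counted. In the 200 bases before the start, E2F type letters were in 27.3% of members with a window. CHR type letters were in 18.2% and the CCAAT box in 57.6%. Among genes in the table with a window these shares were 3.24%, 10.8% and 36.5%. For the mitosis genes the CHR share was 46.2%, against 76.9% in the longer window. Their E2F and CCAAT shares were 3.85% and 73.1% in both windows. Low counts limit Fen1, at 1.30 to 4.23 CPM, more than Gins3 and Orc1, the members next lowest per kilobase. Whether the low counts of Fen1 come from its shared exon bases was not tested. Groups of 2 libraries limit NaJa-F with encorafenib and NaJa-G in DMSO at day 5.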
